A study of Mus musculus with 4 samples.

Results

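The genes described here are 7 genes of growth arrest linked to p53, taken by symbol from a deposited table of 18854 genes: Cdkn1a, Cdkn1b, Btg2, Gadd45a, Plk2, Plk3 and Phlda3. All 7 were listed, and all 7 passed the filter on low values that left 16654 genes for testing. The study measured RNA in wild-type mouse cortical neurons kept in culture to day 15 in vitro and then given Nutlin-3, a p53 activator, for 2 days. The 2 control libraries are titled DMSO, the solvent, although their treatment field calls them untreated, and the 2 treated libraries are titled p53 activator. The labels give no dose, nor do they say whether replicates were grown apart, so the spread behind each p-value and interval below may be technical. In limma that spread comes mostly from genes of like expression, with 98.0 prior degrees of freedom against 2 from the gene's own libraries.

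The transcription factor p53 is held low by the ubiquitin ligase Mdm2, and Nutlin-3 occupies the pocket through which Mdm2 binds it. In dividing cells p53 stops the cycle largely through Cdkn1a, whose product p21 inhibits cyclin-dependent kinases (CDKs), and several other targets add to the arrest: Btg2 slows proliferation and promotes the shortening of mRNA tails, Gadd45a is a stress sensor, Plk2 and Plk3 are polo-like kinases that respond to stress, and Phlda3 competes with the kinase Akt for membrane lipids. Cdkn1b encodes p27, the close relative of p21, which is best known for control by FOXO factors and by protein turnover and is not a classical direct p53 target. Cortical neurons have left the cell cycle, and in them Plk2 is known as an activity-induced kinase of the synapse and Btg2 as an early response gene.

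The values are CPM, which scale a gene's reads to a fixed total for each library, and the libraries held 14584247 to 19065197 reads. Mitochondrially encoded RNAs took 14.3% to 15.6% of the reads in DMSO and 8.97% to 9.99% with the activator, and nuclear protein-coding genes took 73.4% to 75.8% and 82.6% to 83.1%. CPM of a protein-coding gene moves with that shift, so values rescaled to reads of nuclear protein-coding genes alone (coding CPM) are given beside the results that they alter. In bulk RNA, fewer cells of a type and less RNA per cell cannot be told apart.

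Of the 7 genes, Cdkn1b and Plk2 rose, 0 fell, and the other 5 did not pass the test, Cdkn1a among them. A gene was called when limma's adjusted p, over all genes tested, was under 0.05. By that rule 16.9% of all genes tested were called higher and 16.3% lower, and 21.2% of nuclear protein-coding genes were called higher, so a count of 2 in 7 stands near the share of such genes as a whole. At an unadjusted p under 0.05, limma gave 2 higher and 0 lower, and edgeR and DESeq2 on the recovered reads each gave the same 2 counts. The median log2 fold change of the 7 was 0.22, beside 0.03 for all genes tested and 0.09 for nuclear protein-coding genes. In 4 of the 7 (Cdkn1a, Cdkn1b, Plk2 and Phlda3) both activator libraries stood above both DMSO libraries, as they did in 36.6% of all genes tested and 45.2% of nuclear protein-coding ones.

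**Figure D1:**
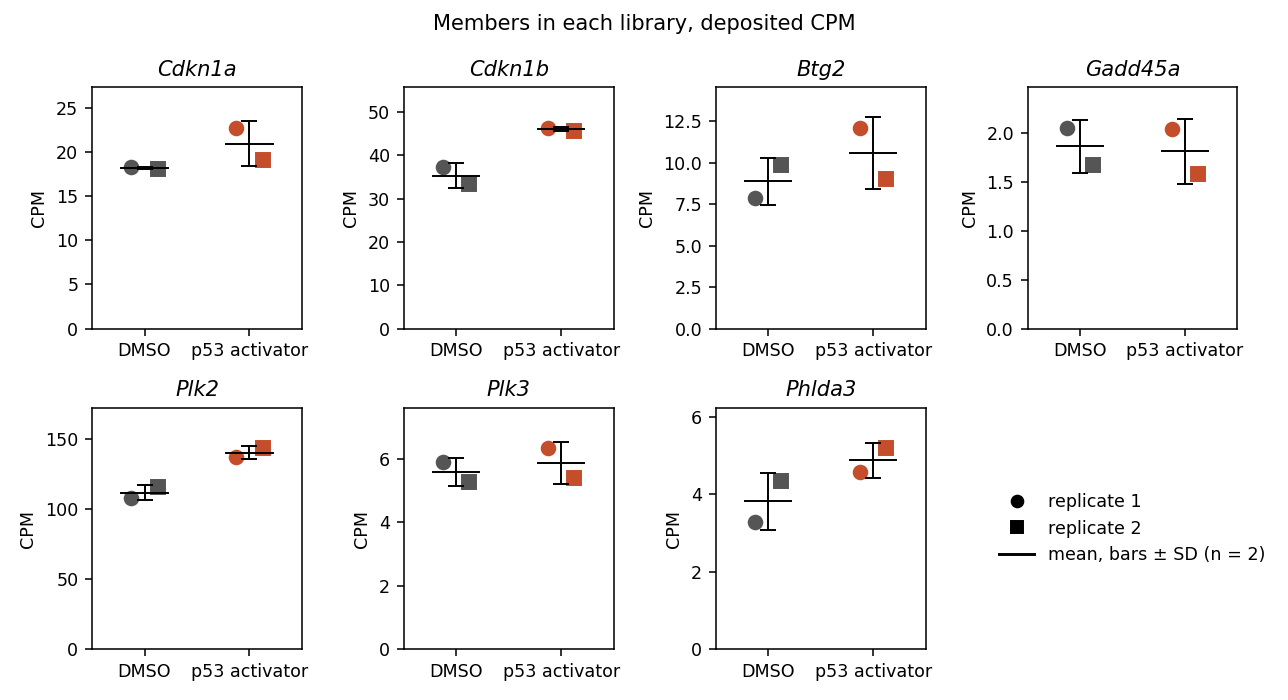
Deposited CPM (y axes from 0) of each of the 7 genes in the 2 DMSO and 2 p53 activator libraries, with circles for replicate 1, squares for replicate 2, a line at the mean and bars of ± SD. The groups of Cdkn1b (33.3 and 37.3 against 45.7 and 46.4 CPM) and of Plk2 (108 and 116 against 137 and 144 CPM) stand clear of each other, while those of Btg2, Gadd45a and Plk3 overlap.

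Cdkn1a is the gene most closely tied to p53-driven arrest, and the upstream of its 2 RefSeq start sites has a p53 element in its promoter window. The element is shown because p53 is known to raise this gene through elements of this kind. The stretch below holds the 250 bases before that start, which lies 2790 bases upstream of the other start, at chr17:29090729-29090978 on the plus strand in the GRCm38.p6 assembly of RefSeq. Capitals mark the match to the p53 element, which has 1 mismatch and begins 51 bases before the start.
Cdkn1a: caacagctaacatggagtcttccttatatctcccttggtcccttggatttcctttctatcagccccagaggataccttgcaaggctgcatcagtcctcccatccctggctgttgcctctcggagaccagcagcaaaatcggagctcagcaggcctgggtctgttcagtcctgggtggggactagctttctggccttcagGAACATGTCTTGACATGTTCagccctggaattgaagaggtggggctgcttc
The search took 2 adjacent copies of the 10-base p53 half-site consensus with at most 1 mismatch in all. The consensus reads the same on both strands. Of 32851 RefSeq windows of 300 bases (250 before and 50 after a start), 29 held such a match, or 0.0883%. Of the 8 windows of the 7 genes this was the only one, and a match in letters does not show that p53 was bound here.

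The level of Cdkn1a did not pass the test. It measured 18.3 and 18.1 CPM under DMSO, from 267 and 271 reads, and 22.8 and 19.1 CPM with the activator, from 434 and 339 reads. The groups did not overlap, but activator replicate 2 lay 0.828 CPM above the higher DMSO library while the activator libraries lay 3.63 CPM apart. The log2 fold change was 0.19 ± 0.12 (SE; limma adjusted p = 0.215), and its 95% interval ran from -0.04 to 0.42. A 2-fold rise from its DMSO level would have read 0.96 on this scale, log2(CPM + 1), and a 1.5-fold rise 0.56, and both lie above the interval. In coding CPM, Cdkn1a stood at 24.9 and 23.9 in DMSO and at 27.4 and 23.2 with the activator, where the groups overlap.

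Cdkn1b, which encodes p27, had the largest fold change of the 7. It measured 37.3 and 33.3 CPM under DMSO and 46.4 and 45.7 CPM under Nutlin-3, from 498 to 885 reads a library. Both activator libraries lay well above both DMSO libraries and close to each other. The mean rose 1.31-fold, and the log2 fold change was 0.38 ± 0.09 (SE; limma adjusted p = 0.000842). In coding CPM it stood at 50.8 and 43.9 in DMSO and at 55.9 and 55.4 with the activator, so the groups stayed apart but the log2 fold change was 0.23 and the call was lost (limma adjusted p = 0.0674). The call was also lost without DMSO replicate 2, where the log2 fold change was 0.30 and the limma adjusted p 0.0522.

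The ratio of Cdkn1b to Cdkn1a within a library does not depend on how libraries are scaled. It was 2.04 and 1.84 in DMSO and 2.04 and 2.39 with the activator. The lowest activator library stood barely above the highest DMSO library, and the mean log2 ratio was higher by 0.19 with the activator. With 2 libraries against 2, an exact two-sided permutation test cannot give a p below 0.333, so none was run on the ratios.

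Of 6 listed relatives that also inhibit or dephosphorylate CDKs, 4 were tested, and 1 rose and 1 fell. The shares, 25% each way, stand beside 21.2% and 7.19% of nuclear protein-coding genes called higher and lower. Cdkn2d, which encodes the INK4 inhibitor p19, measured 13.0 and 11.8 CPM under DMSO and 20.8 and 17.9 CPM under Nutlin-3. Its groups did not overlap, and its log2 fold change of 0.60 ± 0.13 (SE; limma adjusted p = 9.08e-05) was larger than that of any of the 7 genes. The call of Cdkn2d held under all 17 alternatives, with log2 fold changes from 0.47 to 0.70, among them 0.47 in coding CPM (limma adjusted p = 0.00567). Cdkn3, a phosphatase that acts on CDKs, fell from 1.99 and 2.07 CPM to 1.15 and 1.07 CPM (log2 fold change -0.52, limma adjusted p = 0.0433), and lost its call under 8 of 16 alternatives, each of the 4 left-out libraries and both count tests among them. Cdkn2b and Cdkn2c, also INK4 inhibitors, had log2 fold changes of 0.10 and 0.07 and were not called. Cdkn1c, the third of the p21 family, and Cdkn2a were below the filter, at no more than 0.206 and 0.577 CPM in any library.

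The promoter windows of Plk2 and Btg2 hold the cyclic AMP response element TGACGTCA, the letters bound by the activity-dependent factor CREB. They are shown because the windows share this element while only Plk2 of the pair was called. In DMSO the ratio of Plk2 to Btg2 reads was 13.7 and 11.7, and with the activator it was 11.3 and 15.9. These groups overlapped, so a difference in response between Plk2 and Btg2 is not shown. The other motif that 2 of the 7 genes share is the p53 half-site without mismatch, in the windows of Cdkn1a and Gadd45a, which 8.36% of all windows hold. Of the 32851 windows, 588 (1.79%) held TGACGTCA, which reads the same on both strands. Capitals mark it in the 250 bases before each start, at chr13:110394794-110395043 on the plus strand for Plk2 and chr1:134079156-134079405 on the minus strand for Btg2 in GRCm38.p6 of RefSeq. It begins 62 bases before the start of Plk2 and 166 bases before that of Btg2.
Plk2: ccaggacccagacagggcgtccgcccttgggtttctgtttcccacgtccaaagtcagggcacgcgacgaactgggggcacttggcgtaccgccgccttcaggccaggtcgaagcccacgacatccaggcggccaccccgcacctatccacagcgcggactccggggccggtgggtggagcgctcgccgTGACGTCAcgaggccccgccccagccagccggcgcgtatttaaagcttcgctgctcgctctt
Btg2: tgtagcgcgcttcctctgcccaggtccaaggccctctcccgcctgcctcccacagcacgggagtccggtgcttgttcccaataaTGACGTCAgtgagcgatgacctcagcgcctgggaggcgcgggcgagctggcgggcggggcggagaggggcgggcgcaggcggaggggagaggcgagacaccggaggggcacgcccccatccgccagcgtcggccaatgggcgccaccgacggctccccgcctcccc

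Plk2, a kinase that weakens synapses after strong activity, rose with the narrowest interval of the 7. It measured 108 and 116 CPM under DMSO and 137 and 144 CPM under Nutlin-3, from 1578 to 2616 reads a library. The 2 groups were separated by a wider gap than the libraries within either. The mean rose 1.25-fold, and the log2 fold change was 0.32 ± 0.08 (SE; limma adjusted p = 0.000609, 95% interval 0.17 to 0.48). In coding CPM it stood at 147 and 153 in DMSO and at 165 and 174 with the activator. There the groups stayed apart, but the log2 fold change was 0.18 and the call was lost (limma adjusted p = 0.0764).

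The related kinase Plk3, a stress-responsive kinase, was not called. It measured 5.90 and 5.28 CPM under DMSO and 6.35 and 5.42 CPM under Nutlin-3, on 79 to 121 reads a library. The groups overlapped, and the log2 fold change was 0.06 ± 0.17 (SE; limma adjusted p = 0.812). Its 95% interval, from -0.28 to 0.40, also holds values above 0.32, so a difference in response from Plk2 is not shown. The ratio of Plk2 to Plk3 reads was 18.3 and 21.9 in DMSO and 21.6 and 26.5 with the activator, and the groups overlapped. The mitotic kinase Plk1 (log2 fold change 0.02) and the centriole kinase Plk4 (0.04) were not called, and neither had an unadjusted p under 0.05 in limma, edgeR or DESeq2.

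Btg2, an antiproliferative gene that recruits deadenylases to mRNAs, varied more within groups than their means differed. It measured 7.89 and 9.89 CPM under DMSO and 12.1 and 9.03 CPM under Nutlin-3, from 115 to 231 reads a library. Activator replicate 2 lay below DMSO replicate 2, so the groups overlapped. The log2 fold change was 0.22 ± 0.15 (SE; limma adjusted p = 0.265), and it ranged from 0.03 without activator replicate 1 to 0.42 without activator replicate 2, with no call. The ratio of Btg2 to its relative Btg1 was 0.303 and 0.455 in DMSO and 0.464 and 0.343 with the activator. Of the other 4 listed genes of the family, Btg1 (log2 fold change 0.14), Tob1 (0.05), Tob2 (0.03) and Btg3 (-0.04), none was called by limma or edgeR, and none had an unadjusted p under 0.05 in either. Btg3 shares 27138 bases with Cxadr on the opposite strand, and the counting's use of strand is not given, so its reads may not be its own.

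Phlda3, which holds back Akt at the membrane, was higher in both activator libraries without passing the test. It measured 3.29 and 4.34 CPM under DMSO and 4.56 and 5.19 CPM under Nutlin-3, on 48, 65, 87 and 92 reads. The gap between the groups, 0.221 CPM, was smaller than the distance between the libraries of either group. The mean was 1.28 times that of DMSO, about the ratio of Plk2, but the SE of its log2 fold change of 0.29 was 0.18 (limma adjusted p = 0.215, 95% interval -0.07 to 0.66). It was 0.14 without DMSO replicate 1 and 0.45 without DMSO replicate 2, with no call in either. A 2-fold rise would have read 0.84, above that interval, and a 1.5-fold rise 0.48, inside it. It was called under quantile normalization only, at a log2 fold change of 0.50 (limma adjusted p = 0.0475). Its relative Phlda1 measured 7.34 and 8.02 CPM under DMSO and 9.13 and 8.86 CPM under Nutlin-3, a log2 fold change of 0.20 that was not called (limma adjusted p = 0.319).

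Gadd45a, the member of its family that p53 is known to induce, had the fewest reads of the 7 and did not differ between groups beyond its spread. It measured 2.06 and 1.67 CPM under DMSO and 2.05 and 1.58 CPM under Nutlin-3, on 25 to 39 reads a library. In each group replicate 1 was the higher library, and the groups overlapped. The log2 fold change was -0.03 ± 0.21 (SE; limma adjusted p = 0.932), with a 95% interval from -0.43 to 0.38, which lies below the 0.41 that a 1.5-fold rise would read. On the annotation Gadd45a shares 859 bases with E230016M11Rik on the opposite strand, a gene listed at a mean of 4.67 CPM, and the reads of the pair cannot be told apart without strand. Cdkn1a likewise shares 1046 bases and Plk3 84 bases with opposite-strand genes that the table does not list. Gadd45b, induced by activity in neurons, had a log2 fold change of -0.04, Gadd45g -0.12 and Gadd45gip1, which encodes a partner protein, 0.06, and limma and edgeR called 0 of the 3, with 0 at an unadjusted p under 0.05.

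**Figure D2:**
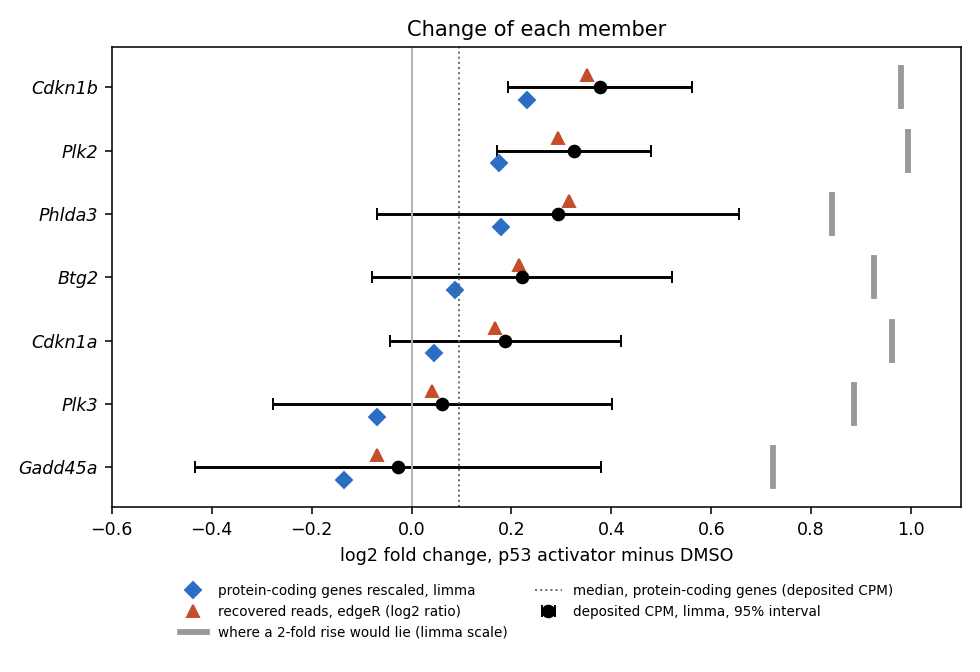
Log2 fold change of each of the 7 genes (x axis, activator minus DMSO), as limma on deposited CPM with 95% intervals (black), limma with nuclear protein-coding genes rescaled to their own total (diamonds) and edgeR on recovered reads (triangles). The intervals of Cdkn1b and Plk2 lie above 0, and the grey bars that mark where a 2-fold rise would read lie above every interval.

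The upper limit of the 95% interval lay below a 2-fold rise for all 7 genes. In the fit on deposited CPM it lay below a 1.5-fold rise for 6 of them, all but Phlda3. The margin was small for Btg2, at 0.52 against 0.54, and for Gadd45a, at 0.38 against 0.41. In coding CPM, the median of all protein-coding genes shifted by -0.14 and 4.37% of them were called higher and 13.1% lower. On that scale limma called 0 of the 7, while 2 had an unadjusted p under 0.05, both higher. Relative to that total Plk3 had a log2 fold change of -0.07 and Gadd45a -0.14, neither called. In edgeR with TMM scaling, where 10.6% of genes were called higher, Cdkn1b (log2 ratio 0.35, edgeR adjusted p = 0.00510) and Plk2 (0.29, edgeR adjusted p = 0.0131) were called and the other 5 were not.

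**Figure D3:**
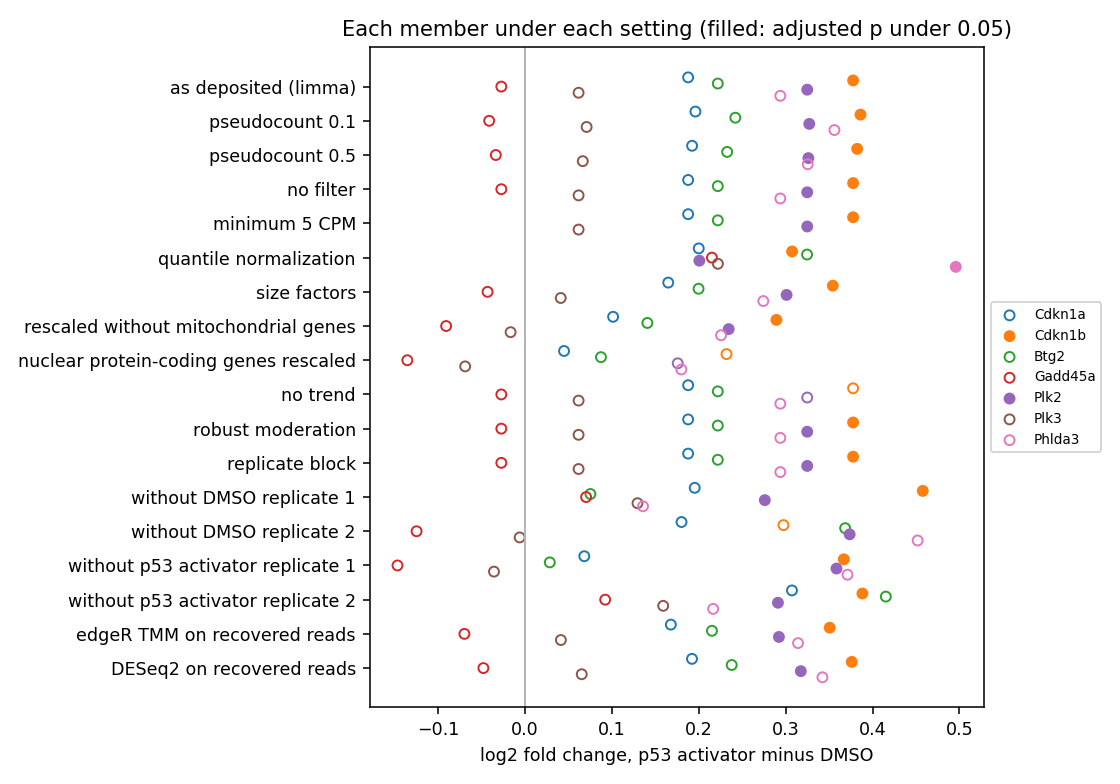
Log2 fold change of each of the 7 genes (x axis) under the fit on deposited CPM and each alternative (rows, edgeR and DESeq2 as log2 ratios of reads), with filled circles at an adjusted p under 0.05. Cdkn1b and Plk2 lie to the right of 0 in each row, and Cdkn1a runs from 0.04 to 0.31 with no filled circle.

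Levels were compared between genes per kilobase of merged exons in GENCODE vM21. The mean over the 4 libraries was 28.1 CPM per kilobase for Plk2, 8.94 for Cdkn1b, 5.51 for Cdkn1a, 3.55 for Btg2, 2.79 for Phlda3, 2.27 for Plk3 and 1.04 for Gadd45a. Over the libraries, Btg2 ranged from 2.87 to 4.42, Phlda3 from 2.11 to 3.33 and Plk3 from 2.09 to 2.51, so Btg2 and Phlda3, and Phlda3 and Plk3, did not differ beyond their spread. The ranges of the other neighbours in that order were apart. It is not given whether reads in introns were counted. Per kilobase of whole gene span the order was the same but for Btg2, at 2.46, and Cdkn1a, at 2.01, which changed places.

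Genes whose 4 values ran most nearly parallel were sought among named genes within 2-fold of the mean CPM, by the root mean square difference of centred log2(CPM + 1) values over the 4 libraries. For Cdkn1a these were Lamtor1 and Hibadh, with differences of 0.00693 and 0.0120 among 4446 candidates. For Cdkn1b they were Rala and the cyclin G gene Ccng2 (0.0160 and 0.0182), for Plk2 Gpr158 and Arfgef2 (0.00571 and 0.00720), and for Btg2 Sco1 and Lypd6 (0.01995 and 0.0439). For Gadd45a they were Cnmd and Kcns1, for Plk3 Hsd17b11 and Gxylt2, and for Phlda3 Cdc5lrt1 and Nemp1. Over 4 libraries such likeness was common for some of the 7 genes and rare for others. Within 0.05 lay 343 of 2562 candidates for Plk2, 205 of 4446 for Cdkn1a and 90 of 2950 for Plk3. The counts were 80 of 4278 for Cdkn1b, 25 of 1923 for Gadd45a, 17 of 2644 for Phlda3 and 4 of 3771 for Btg2.

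Of 17 tested G1 cyclins, CDKs, pocket proteins and E2F factors, Cdk4 rose and E2f3 fell, and the other 15 were not called (median log2 fold change 0.03). The shares, 5.88% each way, stand beside 21.2% and 7.19% of nuclear protein-coding genes called higher and lower. Cdk4, the G1 kinase that INK4 proteins inhibit, went from 29.9 ± 0.599 to 35.5 ± 1.43 CPM (SD, n = 2 each) and lost its call under 13 of 17 alternatives, edgeR and coding CPM (0.09) among them. E2f3, an activator of S phase genes, went from 57.4 ± 1.87 to 48.2 ± 3.92 CPM, a log2 fold change of -0.25 (limma adjusted p = 0.0195). The E2f3 call was lost under 5 of 17 alternatives: without a trend of the spread, in DESeq2, and without DMSO replicate 1, DMSO replicate 2 or activator replicate 2. A list of genes of ubiquitin ligases that govern p27 and p21 turnover, with Pcna among them, gave 6 rises and 0 falls among 12 tested. That share of 50% stands beside 16.9% of all genes tested and 21.2% of nuclear protein-coding genes called higher. The median of the list was 0.25, beside 0.09 for nuclear protein-coding genes. Skp1, a shared subunit, measured 217 and 207 CPM under DMSO and 306 and 268 CPM under Nutlin-3, and the adaptor Ddb1 measured 163 and 174 and then 218 and 235 CPM. Their log2 fold changes were 0.43 and 0.42, and that of the RING subunit Rbx1 was 0.36. The other 3 rises were those of Ubac1 (0.30), Cul4a (0.27) and Cul4b (0.23), named after their values were seen. Ubac1 lost its call under 6 of 17 alternatives, Cul4a under 7 and Cul4b under 11, with coding CPM and DESeq2 among them for each. The call of Ddb1 held under all 17 alternatives, and that of Skp1 under 15 of 16, lost in the fit without a trend, while Rbx1 lost its call without DMSO replicate 2 or activator replicate 1 and in coding CPM (0.22, limma adjusted p = 0.0895). Skp1 was not matched to a protein-coding gene of the annotation and has no value in coding CPM. Skp2, the receptor that hands p27 to the proteasome, was named after its values were seen. It measured 9.26 and 6.81 CPM under DMSO and 5.77 and 6.04 CPM under Nutlin-3 (log2 fold change -0.38, limma adjusted p = 0.0694, edgeR adjusted p = 0.0475). When values were in coding CPM, 1 of the 11 genes of the ligase list other than Skp1 rose, which was Ddb1, and 1 fell, which was Skp2.

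FOXO factors, known activators of Cdkn1b, gave 2 rises among 4 tested, beside 21.2% of nuclear protein-coding genes called higher. Foxo3 went from 66.7 ± 0.173 to 82.6 ± 1.64 CPM (SD over 2 libraries; log2 fold change 0.30) and Foxo1 from 26.8 ± 2.57 to 33.6 ± 1.05 CPM (0.32). Foxo1 lost its call without DMSO replicate 1 or activator replicate 2, and both lost it when values were in coding CPM, at 0.15 for Foxo3 and 0.17 for Foxo1. Akt1, which encodes the kinase that Phlda3 opposes, rose (0.28), and lost its call without DMSO replicate 1, without activator replicate 1 and in coding CPM (0.13, limma adjusted p = 0.242). Of 13 genes of the CCR4-NOT deadenylase, which Btg2 recruits, and its poly(A)-binding partners, Cnot9 (0.45), Cnot6l (0.34) and Cnot1 (0.27) rose and 0 fell, a share of 23.1% beside the 21.2% of nuclear protein-coding genes called higher. In coding CPM Cnot9 rose (0.31), Cnot4 and Cnot10 fell, and Cnot6l (0.19) and Cnot1 (0.12) were not called. The call of Cnot9 held under all 17 alternatives, while Cnot1 lost its call without DMSO replicate 1 and without activator replicate 2. In the FOXO and CCR4-NOT lists limma gave 0 falls at an unadjusted p under 0.05, as did edgeR and DESeq2.

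Of the synaptic proteins on which Plk2 acts, Nsf, the ATPase that takes SNARE complexes apart, rose. It measured 339 and 369 CPM under DMSO and 464 and 470 CPM under Nutlin-3 (log2 fold change 0.40), and its call held under all 17 alternatives. Of 9 GADD45 partners in p38 signalling and DNA demethylation, Tet1 rose (0.22; 0.07 and not called in coding CPM), and lost that call under 9 of 17 alternatives, without DMSO replicate 1 and without activator replicate 1 among them, and 0 fell (1 at an unadjusted p under 0.05 in limma, edgeR and DESeq2 each). The share of 11.1% called higher stands beside 21.2% of nuclear protein-coding genes.

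Other p53 targets of arrest and feedback went both ways, with 5 rises and 1 fall among 13 tested (median 0.09). The shares were 38.5% and 7.69%, beside 21.2% and 7.19% of nuclear protein-coding genes called higher and lower. Rprm, which encodes reprimo, a mediator of arrest in G2, measured 21.3 and 24.5 CPM under DMSO and 34.2 and 28.4 CPM under Nutlin-3. Its log2 fold change of 0.43 (limma adjusted p = 0.000832) was above that of each of the 7 genes, and it lost the call without DMSO replicate 1 or activator replicate 1. Ccng1 (0.32) and Zmat3 (0.31) also rose, as did Ppm1d (0.36) and Sesn2 (0.28), named after their values were seen. Ppm1d lost its call under 8 of 17 alternatives, each left-out library, coding CPM and DESeq2 among them. Sesn2 lost its call under 9 of 17, coding CPM, edgeR and DESeq2 among them. Ccng1 and Zmat3 kept their calls with any 1 library left out, but lost them in coding CPM (0.17 and 0.16). The 1 fall was that of E2f7, a repressor of E2F targets, named after its values were seen. It measured 2.47 and 1.67 CPM under DMSO and 0.892 and 1.07 CPM under Nutlin-3 (log2 fold change -0.62, limma adjusted p = 0.0163), and lost its call without DMSO replicate 1 and without activator replicate 1. Of 10 genes of p53 and its regulators, 0 rose and the kinase Atr fell (-0.32), and Atr lost its call without DMSO replicate 1 and without activator replicate 2. The 10% called lower in that list stands beside 7.19% of nuclear protein-coding genes. At an unadjusted p under 0.05, limma, edgeR and DESeq2 gave 0 rises in that list. In coding CPM the balance of several lists moved towards falls. There Cnot4, Cnot10, E2f5, Tet2, Pdlim5, Mdm2 and Mdm4, all named after their values were seen, were called lower, beside E2f3, Skp2, E2f7 and Atr, while Ddb1, Cnot9, Nsf and Rprm were still called higher.

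**Figure D4:**
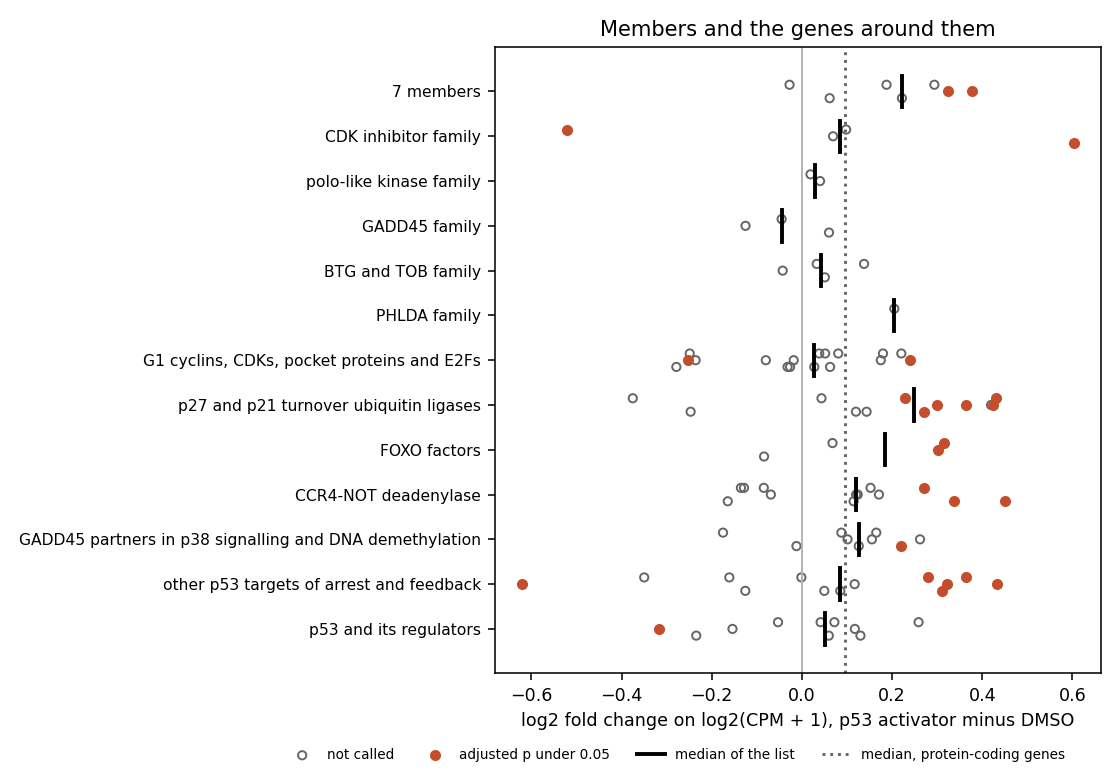
Log2 fold change on log2(CPM + 1) (x axis) of the 7 genes and of each tested gene of 12 related lists (rows), filled where the adjusted p was under 0.05, with a black bar at the median of each list and a dotted line at 0.09, the median of nuclear protein-coding genes. The 7 genes have a median of 0.22, Cdkn2d stands at 0.60 in the CDK inhibitor row, and the ubiquitin ligase row has a median of 0.25.

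Markers of other cells the cultures could hold were listed with their levels beside the 7 genes. All 17 markers of dividing cells were listed, and together they summed to 121.5 to 123 CPM in DMSO and to 105 to 112 CPM with the activator. Limma called 0 of the 17, with 0 higher and 2 lower at an unadjusted p under 0.05, and edgeR called 2 lower, as did limma in coding CPM. Mki67, the most abundant, measured 37.6 and 37.1 CPM under DMSO and 32.9 and 30.9 CPM under Nutlin-3 (limma adjusted p = 0.0632). All 10 astrocyte markers were listed, at 1426 to 1493 CPM in sum in DMSO and 1588 to 1598 CPM with the activator, led by Slc1a3. Of oligodendrocyte lineage markers 8 of 10 were listed, led by Olig1, at 179 to 183 and 201 to 202 CPM in sum. The sum was 11.6 to 12.3 and 10.95 to 11.96 CPM for 4 of 10 microglial markers, with the defining Cx3cr1 and Tmem119 not listed. It was 1.65 to 1.80 and 1.73 to 1.75 CPM for 2 of 6 endothelial markers, Tek and Kdr, of which Kdr was called higher (Cldn5 and Pecam1 were not listed), and 20.9 to 21.8 and 18.5 to 20.8 CPM for 6 of 7 fibroblast and mural markers, led by Dcn. Of 10 neuronal markers, all listed, 8 rose and Rbfox3 fell. These shares of 80% and 10% stand beside 21.2% and 7.19% of nuclear protein-coding genes called higher and lower. The neuronal markers summed to 6602 and 7389 CPM in DMSO and to 7624 and 7768 CPM with the activator, led by Map2. The median log2 fold change of the neuronal markers was 0.34, and in coding CPM it was 0.19, with 6 called higher and 2 lower. In coding CPM 4.37% of all protein-coding genes were called higher and 13.1% lower. The part of these cells in the rises of Cdkn1b and Plk2 was not tested.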

How the data were processed

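The 4 libraries, 2 for DMSO and 2 for the p53 activator, hold total RNA taken up in TRIzol and then rid of ribosomal RNA, per the labels' protocols. The submitters' processing notes name TopHat2, Cufflinks 2.0.0 and mm9, with no role. What counted the reads, on which annotation and strand, is not given in the sources used. The deposited values were read as CPM, since within each column they are whole multiples of 1 step. Steps gave whole reads for 100% of values, within 0.01 reads. Replicates differed by more than sampling noise (chi-square per degree of freedom 4.52 for DMSO and 5.16 for the activator).

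The filter asked for 1 CPM or more in 2 or more libraries. limma 3.58.1 in R 4.3.3 fitted log2(CPM + 1) by group, moderated with a trend, two-sided, with Benjamini-Hochberg adjustment over all genes. There were 2 residual and 98.0 prior degrees of freedom. edgeR 4.0.16 (TMM) and DESeq2 1.42.0 used the recovered reads. Scripts were tested on simulated data. The steps of 1 read are worth 0.0525 to 0.0686 CPM.

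The 7 genes and the lists were chosen with earlier results of these data known, and the motifs after the promoter windows were read. Named genes were the 7, the tested genes of their 5 families, from each other list up to 3 called genes in order of p (or its most abundant gene), the most abundant marker of each cell type and the 2 most parallel genes; others are said to be named afterwards, and a few genes and 2 of the lists are not reported here. Gene classes and lengths came from GENCODE vM21 (15860 symbols matched 1 gene) and promoters from RefSeq, where all 7 genes matched.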

Additional observations from a re-analysis of the deposited data

How the results depend on the processing

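Cdkn1b and Plk2 kept their direction under all 17 alternatives, all of them planned. Scaling nuclear protein-coding genes to their own total gave 0.23 for Cdkn1b, 0.18 for Plk2 and -0.069 for Plk3, and a spread that did not follow expression left 0.38 for Cdkn1b and 0.32 for Plk2 uncalled (limma adjusted p = 0.0613 and 0.0768), so that 0 of the 7 rose in either fit. Rescaling without mitochondrial genes turned Plk3 to -0.017. Quantile normalization turned Gadd45a to 0.22 and called Phlda3 at 0.50. With 1 library left out, where a lone library is assumed to vary like the other group, log2 fold changes ran from 0.30 to 0.46 for Cdkn1b, from 0.28 to 0.37 for Plk2, from -0.15 to 0.092 for Gadd45a and from -0.036 to 0.16 for Plk3, and 1 to 2 of the 7 rose. They ran from 0.14 to 0.45 for Phlda3, from 0.068 to 0.31 for Cdkn1a and from 0.028 to 0.42 for Btg2. Cdkn1a and Btg2 were called under none of the 17. A minimum of 5 CPM left Gadd45a and Phlda3 without a value.

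Of all genes tested, 2811 rose and 2721 fell. The rises numbered 1632 under quantile normalization, 1284 without mitochondrial genes, 570 among rescaled protein-coding genes, 302 without a trend, 1872 in edgeR, 1279 in DESeq2 and 1140 to 2119 with 1 library left out. The falls numbered 1776 at a minimum of 5 CPM, 1707 among rescaled protein-coding genes, 1493 in DESeq2 and 1367 to 2543 with 1 library left out. Rises were 50.8% of the calls as deposited, 39.7% in edgeR and 25.03% among rescaled protein-coding genes. Of 476 counts of calls in the pathway lists, 96 moved by over 1.5 times, 73 to fewer calls and 23 to more.

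With the replicate block, which takes the shared numbers as pairs, 3705 genes rose and 3132 fell, and it changed no call among the 7 genes. Deviations of replicate 1 correlated at 0.12 across genes between the groups, and nothing in the labels ties the numbers. Gadd45a, Phlda3 and Plk3 rest on 25 to 121 reads a library, and the part of depth in their missing calls was not tested.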
